A study of Homo sapiens with 18 samples.

Results

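The markers of the differentiated colon epithelium described here are 10 genes: PHGR1, LGALS4, GPA33, CDH17, CDX1, CDX2, VIL1, KRT20, LYZ and CEACAM5. They were chosen by symbol, with earlier results of these data known. All 10 are listed in each of the 3 deposited tables, out of 27630 distinct symbols over the tables. Levels come from bulk RNA-seq of 18 samples of human cancer cell lines, 6 per line. RKO and COLO 201 are labelled colon cancer and H1975 lung cancer. Every sample of every line carries the same construct, a tetracycline-inducible short hairpin RNA against MUC1 (tet-MUC1shRNA), with puromycin resistance as the labelled genotype. The 2 arms of each line are 0.1% DMSO as vehicle and 500 ng/ml doxycycline, which switches the hairpin on, with 3 columns per arm. The arm was read from the headings of the tables. In RKO the vehicle columns are headed DOX with no sign, so that reading was inferred. No column with doxycycline and another hairpin was used here, so an effect of doxycycline, of the hairpin and of the loss of MUC1 cannot be told apart. The labels speak of cells cultured in triplicate and give no treatment time, and they do not say whether a line is 1 clone. The p-values measure the spread between cultures of 1 line.

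The colon is lined by a single layer of cells that arise from stem cells at the base of the crypts and mature as they move up. The homeodomain factors CDX1 and CDX2 set intestinal identity and bind the promoters and enhancers of many genes of mature enterocytes. Among these are the intestinal cadherin CDH17, the surface glycoprotein GPA33, the microvillus protein VIL1 and the keratin KRT20, which marks the upper crypt and surface. LGALS4 is a galectin of the digestive tract that binds sulfated glycolipids. PHGR1 is a small protein rich in proline, histidine and glycine that is abundant in colon epithelium. LYZ, lysozyme, cleaves bacterial cell walls and is made by Paneth cells and macrophages. CEACAM5 is carcinoembryonic antigen, a glycoprotein anchored in the apical membrane.

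Values are TPM, transcripts scaled to a fixed total, in which each column adds up to 1000000 and which are scaled by transcript length. The tables were made separately, so levels are compared between genes within a table and no test is made of levels between lines. Genes with a mean of at least 1 TPM over the 6 columns of a line were tested with limma, a linear model with pooled variances, on log2(TPM + 1). A call is a Benjamini-Hochberg adjusted p under 0.05 over all genes tested in the line. Folds on this scale understate the change of low genes. The absolute depth is unknown, and 14687 to 16935 genes were above 0 per column. Under doxycycline the targeted gene MUC1 was at 12.8% of its vehicle mean in COLO 201, 8.22% in H1975 and 2.38% in RKO, and its arms did not overlap in any line. In RKO vehicle column 1 stood apart, with 15.2 TPM of MUC1 against 1.24 and 1.03 TPM in the other vehicle columns. Without that column the doxycycline mean of MUC1 in RKO was 12.2% of vehicle, and the gene fell under the minimum for the test. The RKO call for MUC1 changed under 7 of 12 alternatives, so there the check rests on the levels.

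The markers were found mainly in COLO 201, where they changed in both directions. Of the 10 genes, 7 reached the minimum of 1 TPM there. LGALS4, PHGR1, GPA33, LYZ and VIL1 fell and CDH17 and KRT20 rose. All 7 were called (5 lower and 2 higher), in a line where limma called 61.0% of 11566 tested genes, 15.0% lower and 45.9% higher, so the count of calls alone says little about the markers. CDH17 reached the minimum only through its doxycycline columns, and without it the count was 5 lower and 1 higher of 6, with a median log2 change of -1.13. With it, the median of the 7 was -1.0, against 0.12 over all tested genes. With the columns rescaled to a common median ratio, calls over all genes were 3153 higher and 3435 lower, and the 7 markers kept their calls and directions. The arms did not overlap for any of the 7 tested markers, against 65.1% of the tested genes. With CDX1, CDX2 and CEACAM5, which were not tested, the count was 9 of the 10 genes. The matching share over all listed genes is not given here. The sum of the 10 markers was 2471 to 2616 TPM in the vehicle columns and 1146 to 1224 TPM in the doxycycline columns. LYZ and PHGR1 made up most of it. The share of TPM held by mitochondrially encoded genes also moved with the arms, from 20.1% to 23.0% in vehicle to 16.9% to 18.6% with doxycycline. With these genes removed, the same 7 calls were made in the same directions.

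**Figure D1:**
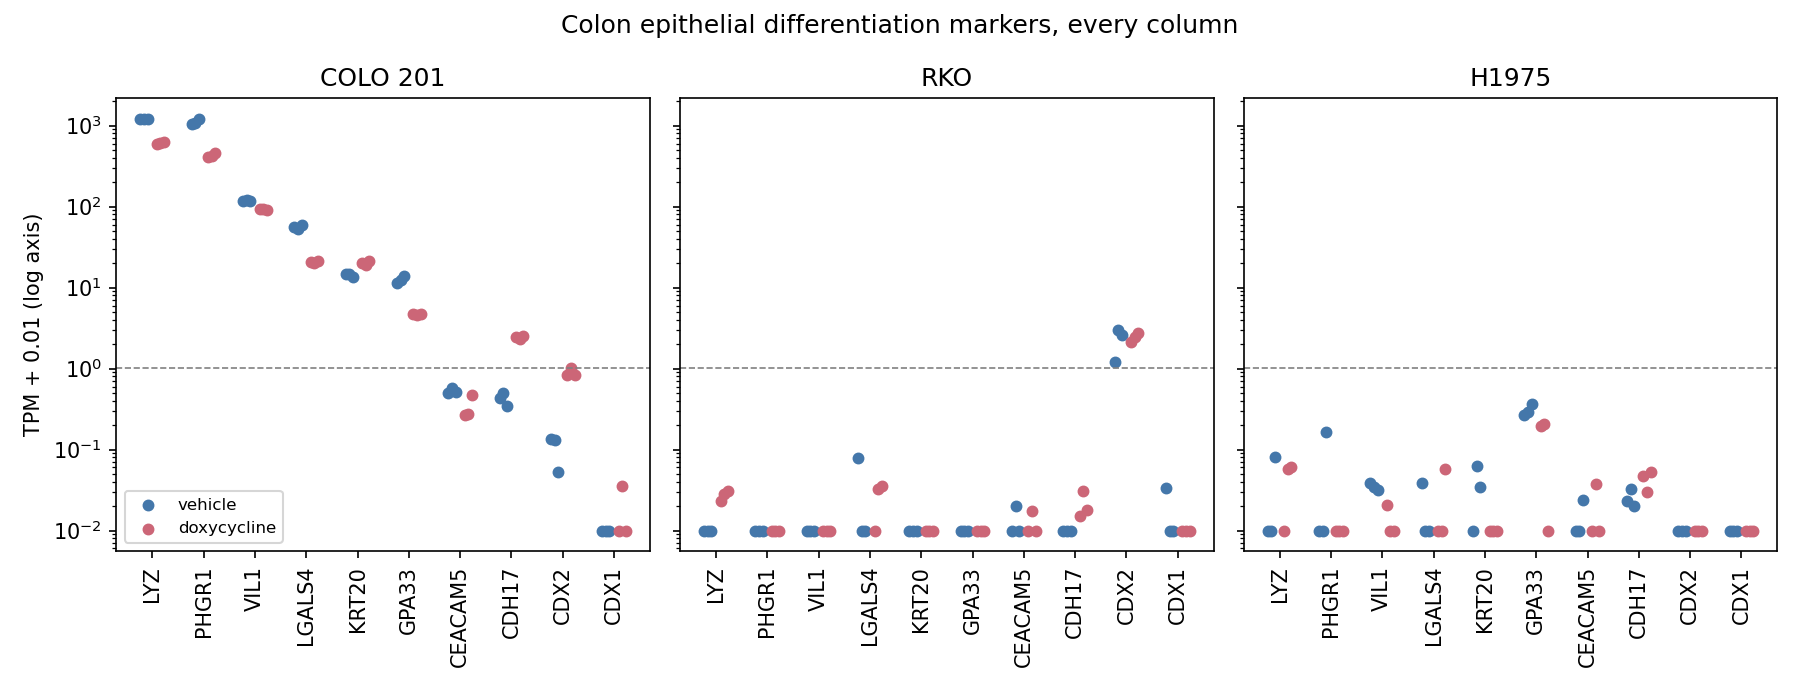
TPM of the 10 markers in every column of the 3 lines, on a log axis after adding 0.01, with vehicle columns in blue and doxycycline columns in red; the dashed line marks 1 TPM. Markers span 5 orders of the axis in COLO 201, CDX2 is alone above 1 TPM in RKO, and no marker reaches 1 TPM in H1975.

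LGALS4, GPA33 and PHGR1 fell by nearly the same factor in COLO 201. LGALS4 (chromosome 19, 38801671 to 38813364, minus strand, GRCh38) stood at 56.0, 53.3 and 59.7 TPM in the vehicle columns and at 20.8, 20.3 and 21.3 TPM with doxycycline. Its mean was 56.3 ± 3.24 (SD, n = 3) and 20.8 ± 0.478 TPM, and limma put the change at -1.39 ± 0.05 (log2, SE, adjusted p = 7.8e-10). That change lay at the 0.233 percentile of all tested genes. The gene is transcribed at a moderate level in vehicle, where it ranked 2306 of 19881 listed genes, and every doxycycline column was well under every vehicle column.

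PHGR1 (chromosome 15, 40351033 to 40356434, plus strand) was among the most abundant messages of the line. It stood at 1055, 1086 and 1193 TPM in vehicle and 411, 421 and 459 TPM with doxycycline. The means were 1111 ± 72.6 and 430.2 ± 25.1 TPM (SD, n = 3), and the log2 change by limma was -1.37 ± 0.05 (adjusted p = 2.2e-09). Its rank moved from 104 in vehicle to 264 with doxycycline. PHGR1 is a compact gene, with 4 exons and 436 bases in its 1 annotated coding transcript.

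GPA33 (chromosome 1, 167052836 to 167166479, minus strand) stood at 11.5, 12.2 and 13.8 TPM in vehicle and 4.73, 4.52 and 4.71 TPM with doxycycline. The means were 12.5 ± 1.17 and 4.65 ± 0.116 TPM (SD, n = 3), and limma gave -1.25 ± 0.07 on the log2 scale (adjusted p = 2.6e-08). GPA33 encodes the A33 antigen, an immunoglobulin-like surface protein of intestinal epithelium. Its annotated span overlaps DUSP27 on the opposite strand, which was at 551 TPM in vehicle and 415.5 TPM with doxycycline. The libraries are stranded, but the sources used here do not give whether counting used strand, so reads of the overlapping genes cannot be told apart with certainty. DUSP27 fell by 0.41 on the log2 scale, less than GPA33.

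The 3 genes thus kept their proportions to each other. With doxycycline LGALS4 was at 36.9% of its vehicle mean, GPA33 at 37.2% and PHGR1 at 38.7%. The ratio of PHGR1 to LGALS4 was 19.7 ± 0.811 in vehicle and 20.7 ± 0.916 with doxycycline (SD, n = 3), and the ranges of the arms overlapped. The ratio of LGALS4 to GPA33 was 4.52 ± 0.302 and 4.47 ± 0.0609. The 3 genes lie on different chromosomes.

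RefSeq promoter windows were at hand for 5 of the 10 markers, LGALS4, GPA33, CDX2, KRT20 and CEACAM5. The 250 bases before the RefSeq start site (GRCh38.p14) are shown for a pair that fell together, LGALS4 and GPA33, and for a pair that was higher with doxycycline, CDX2 and KRT20, so that their sequences can be compared. Each runs 5′ to 3′ on the strand of the gene, and capitals mark matches to the motifs searched.

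LGALS4, chr19:38812946-38813195, minus strand: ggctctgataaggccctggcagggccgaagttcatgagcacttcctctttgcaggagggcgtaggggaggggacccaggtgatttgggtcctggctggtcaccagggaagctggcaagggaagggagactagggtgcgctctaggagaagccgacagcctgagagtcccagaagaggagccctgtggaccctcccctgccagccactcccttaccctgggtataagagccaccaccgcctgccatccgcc

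GPA33, chr1:167090378-167090627, minus strand: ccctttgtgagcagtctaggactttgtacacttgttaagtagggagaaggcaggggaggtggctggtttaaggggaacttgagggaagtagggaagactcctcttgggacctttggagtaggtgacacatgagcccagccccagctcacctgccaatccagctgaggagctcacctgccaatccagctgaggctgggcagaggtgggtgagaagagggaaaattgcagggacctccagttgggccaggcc

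CDX2, chr13:27969316-27969565, minus strand: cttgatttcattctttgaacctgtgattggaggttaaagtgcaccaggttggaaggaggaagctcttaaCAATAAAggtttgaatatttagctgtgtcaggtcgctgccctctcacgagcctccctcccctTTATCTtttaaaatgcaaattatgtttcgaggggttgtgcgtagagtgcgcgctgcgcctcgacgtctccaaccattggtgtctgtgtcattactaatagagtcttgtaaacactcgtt

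KRT20, chr17:40885243-40885492, minus strand: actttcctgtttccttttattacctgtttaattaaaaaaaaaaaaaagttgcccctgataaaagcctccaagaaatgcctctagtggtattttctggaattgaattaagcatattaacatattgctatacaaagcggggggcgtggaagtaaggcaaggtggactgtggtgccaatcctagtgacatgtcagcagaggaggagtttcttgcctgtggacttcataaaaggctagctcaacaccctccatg

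The motifs were searched on both strands over 300 bases, from 250 before to 50 after the start: CNATAAA for CDX factors, CAAAGTCCA for HNF4, AGATAA for GATA factors and CACGTG as the E-box, with the longer palindromic HNF1 motif searched too. The motifs do not overlap at any match found. In the CDX2 window, CAATAAA begins 181 bases before the start, and TTATCT, the GATA motif read on the other strand, begins 119 bases before it. The CDX motif occurs in 9.73% of 35116 windows and the GATA motif in 10.3%. The CEACAM5 window holds an E-box 46 bases before its start, a motif found in 7.26% of windows. The LGALS4, GPA33 and KRT20 windows hold none of the 5 motifs as written. The HNF4 motif occurs in 0.384% of windows and the HNF1 motif in 0.0057%. GC content was 63.2% for LGALS4 and 56.8% for GPA33 over the bases shown, and 45.2% for CDX2 and 41.2% for KRT20. The LGALS4, GPA33 and CDX2 windows lie inside the annotated spans given for these genes, so they do not lie before the outer start of the gene. For GPA33 the window ends at 167090627 and the span at 167166479. A match or its absence describes these letters only.

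LYZ (chromosome 12, 69348341 to 69354234, plus strand) was the most abundant of the markers. It stood at 1217, 1221 and 1219 TPM in vehicle and 592, 615 and 624 TPM with doxycycline, with means of 1219 ± 2.10 and 610.4 ± 16.5 TPM (SD, n = 3). It fell by 1.00 ± 0.04 on the log2 scale (adjusted p = 1.9e-09 by limma). LYZ was at 50.1% of vehicle, so it fell less far than PHGR1. The ratio of PHGR1 to LYZ went from 0.867 to 0.979 in vehicle to 0.685 to 0.735 with doxycycline, and the arms did not overlap. An annotated antisense gene lies opposite LYZ, and the limit on strand given for GPA33 holds here too.

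Since LYZ also marks Paneth cells and macrophages, the other markers of these cells were read beside it. Of 16 leukocyte markers 3 were at 0 in every COLO 201 column, and the pan-leukocyte gene PTPRC was at 0 in vehicle and at most 0.00534 TPM with doxycycline. The sum of the 16 was 65.2 to 69.3 TPM in vehicle and 102 to 118 TPM with doxycycline, opposite in direction to LYZ. Nearly all of it was CD68, a lysosomal protein found in many cell types, at 66.4 TPM in vehicle and 108.8 TPM with doxycycline. Of the 12 listed Paneth genes 5 were at 0 in every column, among them the defensin DEFA6. DEFA5 was at 0 in 4 columns and at most 0.479 TPM. PLA2G2A, a secreted phospholipase of Paneth and goblet cells, was at 832 ± 6.67 TPM in vehicle and fell to 629.8 ± 16.7 TPM, or by 0.40 ± 0.04 on the log2 scale (adjusted p = 2.9e-06 by limma). The other tested Paneth genes did not move as one. NOD2 changed by -0.38 on the log2 scale, MMP7, which was tested only through its doxycycline columns, by 1.28, and CA9 by 0.03, which did not pass.

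VIL1 (chromosome 2, 218419092 to 218453295, plus strand), which bundles the actin of microvilli, fell by the least of the 5. It stood at 116, 119 and 116 TPM in vehicle and 93.5, 93.0 and 90.7 TPM with doxycycline. The means were 117 ± 1.84 and 92.4 ± 1.51 TPM (SD, n = 3), with a change by limma of -0.34 ± 0.04 on the log2 scale (adjusted p = 8.3e-06). The doxycycline mean was 79.0% of vehicle. USP37 lies opposite VIL1 and did not pass the test (log2 change 0.04 ± 0.06).

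**Figure D2:**
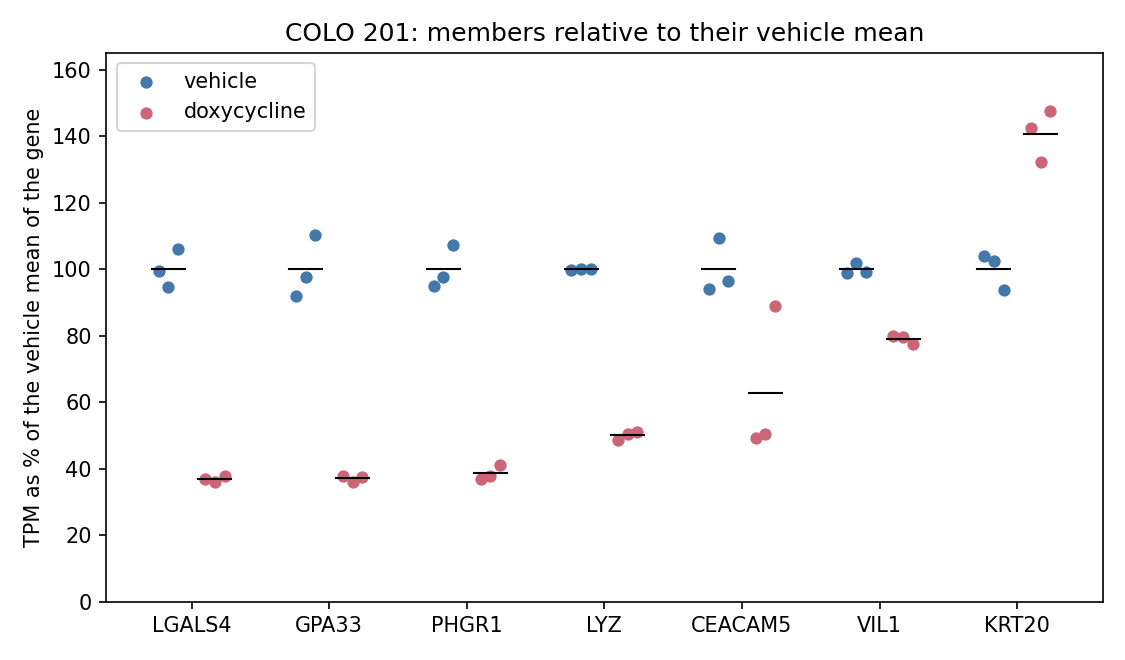
TPM of 7 markers in each COLO 201 column as a percentage of the gene's vehicle mean, with vehicle in blue, doxycycline in red and bars at the arm means. LGALS4, GPA33 and PHGR1 sit together near 37% to 39%, LYZ at 50.1%, CEACAM5, which was not tested, at 62.9% and VIL1 at 79.0%, while KRT20 lies above its vehicle columns.

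KRT20 and CDH17 went the other way. KRT20 (chromosome 17, 40875941 to 40885227, minus strand) stood at 14.8, 14.6 and 13.4 TPM in vehicle and 20.3, 18.9 and 21.1 TPM with doxycycline. The means were 14.3 ± 0.794 and 20.1 ± 1.12 TPM (SD, n = 3), with a log2 rise of 0.47 ± 0.06 by limma (adjusted p = 2.4e-05), and the arms did not overlap. This keratin of mature surface cells thus rose to 141% of vehicle in the columns where LGALS4 fell to 36.9%.

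CDH17 (chromosome 8, 94127171 to 94217303, minus strand), a cadherin of intestinal cells that adheres independently of catenins, was low in vehicle. Its columns were at 0.422, 0.489 and 0.331 TPM in vehicle and 2.47, 2.29 and 2.51 TPM with doxycycline. The ratio of the means was 5.86, and the log2 change was 1.28 ± 0.08 (limma adjusted p = 8.8e-08), at the 99.7 percentile of tested genes. CDH17 reached the minimum of 1 TPM only through its doxycycline columns, so that it was tested at all depended on the difference. The size also depended on the pseudocount, with 2.31 at a pseudocount of 0.1 and 0.46 at 5.

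The CDX genes themselves were near the floor of the COLO 201 table. CDX2 (chromosome 13, 27962137 to 27971139, minus strand) stood at 0.124, 0.120 and 0.0433 TPM in vehicle and 0.823, 1.02 and 0.831 TPM with doxycycline. The arms did not overlap, and the ratio of the means was 9.33 from a vehicle level of 0.0955 ± 0.0453 TPM (SD, n = 3). CDX2 missed the minimum for the test. In the fit with no minimum TPM its log2 change was 0.79 ± 0.05 (limma adjusted p = 7.5e-05). The exact two-sided permutation p was 0.1, the smallest that 3 against 3 columns can give. Both CDX2 and CDH17 were thus higher with doxycycline, while LGALS4, GPA33 and PHGR1 were lower. CDX1 (chromosome 5, 150166795 to 150184558, plus strand) was listed at 0 in 5 columns and at 0.0259 TPM in doxycycline column 2.

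CEACAM5 (chromosome 19, 41708585 to 41729798, plus strand) was also under 1 TPM. Its columns were at 0.485, 0.565 and 0.498 TPM in vehicle and 0.254, 0.261 and 0.460 TPM with doxycycline, and doxycycline column 3 lay close to the vehicle columns. Without the minimum the log2 change was -0.20 ± 0.06 (limma adjusted p = 0.039). CEACAM6, the related granulocyte and colon antigen, was at 0.584 ± 0.176 TPM in vehicle and 0.341 ± 0.0632 TPM with doxycycline and was not tested. These genes are close in sequence, so reads split between them are uncertain. CEACAM1, another member of the family, was at 28.2 TPM in vehicle, far above CEACAM5.

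**Figure D3:**
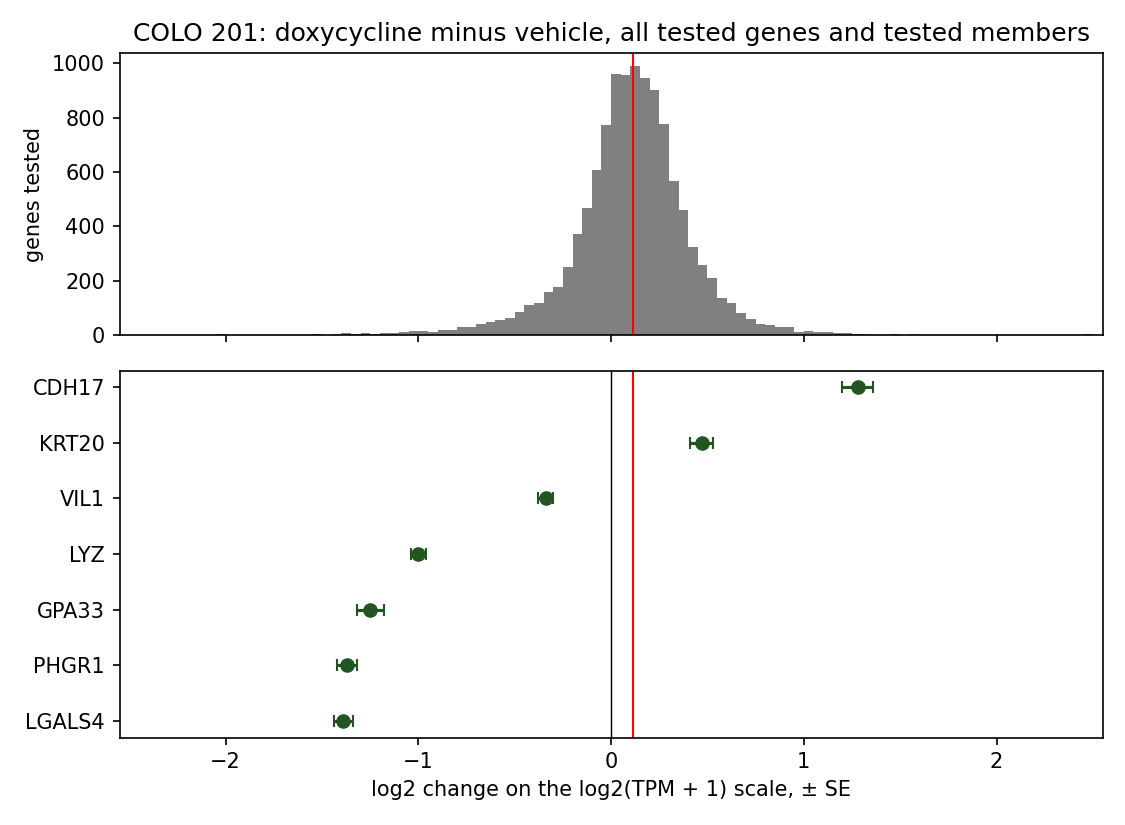
Upper panel, histogram of the log2 change (doxycycline minus vehicle, log2(TPM + 1) scale) of the 11566 genes tested in COLO 201, with values beyond 2.5 placed at the edge and the median of 0.12 in red; lower panel, the 7 tested markers with their standard errors. LGALS4, PHGR1, GPA33 and LYZ lie in the lower tail below the 1st percentile, CDH17 lies in the upper tail and KRT20 and VIL1 lie nearer the middle.

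In RKO, a colon cancer line, CDX2 was the only marker above 1 TPM. Its columns were at 1.18, 2.96 and 2.56 TPM in vehicle and 2.11, 2.46 and 2.71 TPM with doxycycline, and the arms overlapped. The log2 change was 0.13 ± 0.22 and did not pass (limma adjusted p = 0.70), in a line where 18.1% of 10551 tested genes were called. Vehicle column 1 was the lowest of the 6, and without it the value was -0.14 ± 0.18 (limma adjusted p = 0.61), so its sign rested on that column. PHGR1, GPA33, VIL1 and KRT20 were listed at 0 in every RKO column. LGALS4, CDH17, CDX1, LYZ and CEACAM5 were at most 0.0692 TPM. Among them CDH17 and LYZ were at 0 in every vehicle column and above 0 in every doxycycline column, at most 0.0204 and 0.0211 TPM. The share of all RKO genes whose arms did not overlap is not given here. RKO thus held CDX2 at a higher listed level than COLO 201 did, without the other 9 markers, while COLO 201 held 6 of them above 10 TPM with CDX2 at 0.0955 TPM. The RKO table has 67.8% to 78.7% of its TPM in small noncoding RNA genes, which lowers the TPM of every other gene there, so these levels are set side by side only. With those genes removed the CDX2 change was 0.42 ± 0.28 (limma adjusted p = 0.33).

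In H1975, a lung cancer line, no marker reached 1 TPM and none was tested, in a line where 38.5% of 12359 tested genes were called. The sum of the 10 markers was 0.140 to 0.650 TPM per column. CDX1 and CDX2 were listed at 0 throughout. GPA33 was the highest, at 0.255, 0.284 and 0.355 TPM in vehicle and 0.188, 0.200 and 0 TPM with doxycycline. The other 7 were at most 0.1545 TPM in any column. With no minimum TPM, limma called 0 of the 8 markers above 0 in H1975, and GPA33 had a log2 change of -0.21 ± 0.07 (adjusted p = 0.079). The VIL1 arms did not overlap either, at 0.0282, 0.0245 and 0.0220 TPM in vehicle and 0.0104, 0 and 0 TPM with doxycycline, and neither did those of GPA33. The share of all H1975 genes whose arms did not overlap is not given here, so this describes levels near the floor only. Of the 2 lines labelled colon cancer COLO 201 alone had more than 1 of the 10 markers above 1 TPM.

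The wider programme of the gut was read through 15 lists with 236 genes of intestinal lineages, of the families of the markers and of other cell types. In COLO 201, where 45.9% of all tested genes were called higher and 15.0% lower, 92 of the 236 were tested. Of these, 37 rose, 32 fell and 23 did not pass, with a median of 0.05 against 0.12 over all genes. After rescaling by the median ratio 28 were higher and 38 lower, beside 27.3% higher and 29.7% lower over all tested genes. CREB3L1, MMP7, SFTPA2, CD14 and LYZL4 passed the minimum through 1 arm only, so that they were tested at all depended on the difference, and their values are a description.

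Transcription factors of the intestine moved in both directions in COLO 201, with 6 higher and 4 lower of 15 tested and a median of 0.06. After rescaling they were 4 and 6. Over all tested genes 45.9% were called higher and 15.0% lower, and after rescaling 27.3% and 29.7%. HNF4A, a nuclear receptor of gut and liver epithelium, fell from 59.5, 61.5 and 62.8 TPM to 26.0, 25.8 and 26.4 TPM. Its log2 change was -1.20 ± 0.04 (limma adjusted p = 5.9e-10), the largest fall of the list. The ETS factor ELF3 rose by 0.45 ± 0.05 and SOX9, a factor of the crypt base and the most abundant of the list, by 0.29 ± 0.05. KLF5 fell by 0.16 ± 0.05 (limma adjusted p = 0.017) but did not pass without vehicle column 2 (adjusted p = 0.087) or doxycycline column 1 (0.057). HNF4G, the paralog of HNF4A, was at 6.31 TPM in vehicle and 6.63 TPM with doxycycline and did not pass (limma adjusted p = 0.45). In the other lines HNF4A was at most 0.0626 TPM, while HNF4G was at 2.36 ± 0.199 TPM in H1975 vehicle and 2.97 ± 0.974 TPM in RKO vehicle.

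Genes of the brush border, the layer of microvilli that VIL1 helps to build, had 3 higher and 8 lower of 14 tested in COLO 201, with a median of -0.14. After rescaling 1 was higher and 10 were lower. The shares over all tested genes were 45.9% higher and 15.0% lower, and after rescaling 27.3% and 29.7%. ANKS4B, which anchors the links between microvilli, fell from 16.5 ± 0.273 to 9.31 ± 0.345 TPM, by 0.76 ± 0.05 on the log2 scale (adjusted p = 1.6e-07 by limma). The actin-associated MISP fell by 0.41 ± 0.04, the scaffold SLC9A3R1 by 0.38 ± 0.04 and BAIAP2L2 by 0.49 ± 0.08. EZR, which ties the membrane to actin, was the most abundant at 339.5 TPM in vehicle and did not pass (0.07 ± 0.04, limma adjusted p = 0.13).

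Of 9 tested genes of absorptive colonocytes 7 were higher and 1 was lower in COLO 201, with a median of 0.24. Over all tested genes of the line 45.9% were called higher and 15.0% lower. After rescaling the absorptive genes were 4 and 1, beside 27.3% and 29.7% over all tested genes. GUCA2A, the precursor of guanylin, rose from 3.52 ± 0.173 to 10.5 ± 0.366 TPM, by 1.34 ± 0.06 on the log2 scale (adjusted p = 5.7e-09 by limma). The brush border peptidase DPP4 rose by 0.88 ± 0.07 and the cortisol-inactivating enzyme HSD11B2 by 0.42 ± 0.07. TSPAN1 fell by 1.01 ± 0.09. TSPAN8 (0.16 ± 0.04) and CES2 (0.19 ± 0.05) rose but did not pass after rescaling (limma adjusted p = 0.52 and 0.20). Of the 31 listed genes 8 were at 0 in every column, among them the disaccharidase SI, so the list was carried by part of its members.

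Goblet and secretory genes had 3 higher and 6 lower of 10 tested in COLO 201, with a median of -0.48, and the same counts after rescaling. Beside them, 45.9% of all tested genes were called higher and 15.0% lower, and after rescaling 27.3% and 29.7%. CREB3L1, a transcription factor of secretory cells, stood at 3.31 ± 0.452 TPM in vehicle and 0.268 ± 0.0977 TPM with doxycycline, a log2 change of -1.76 ± 0.10. AGR2, a disulfide isomerase needed for mucin folding, fell from 129 ± 2.68 to 66.4 ± 3.38 TPM (-0.95 ± 0.04, adjusted p = 6.2e-09 by limma). The secreted mucin MUC5B fell by 1.00 ± 0.06 and the membrane mucin MUC13 by 0.57 ± 0.05. TFF3, a trefoil peptide of goblet cells, was at 44.9 TPM in vehicle and 43.7 TPM with doxycycline and did not pass (limma adjusted p = 0.69). MUC2, the main mucin of goblet cells, was at 0.0124 TPM in vehicle.

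Crypt base genes had 6 higher and 6 lower of 14 tested in COLO 201, also after rescaling. Beside them, 45.9% of all tested genes were called higher and 15.0% lower, and after rescaling 27.3% and 29.7%. TNFRSF19 rose by 1.37 ± 0.06, SMOC2 by 0.69 ± 0.04 and PROM1 by 0.80 ± 0.05. The hyaluronan receptor CD44 fell by 0.95 ± 0.04 and the ephrin receptor EPHB2 by 0.43 ± 0.04. The stem cell receptor LGR5 was at 8.31 and 8.37 TPM in the arms and did not pass (limma adjusted p = 0.93). Of the Paneth list 1 rose and 2 fell of 4 tested: MMP7 rose by 1.28 ± 0.11, and PLA2G2A and NOD2 (-0.38 ± 0.06) fell, while CA9 (0.03 ± 0.08) did not pass. Enteroendocrine genes were under the minimum, with CHGB at 0.645 TPM and TPH1 at 0.234 TPM in vehicle.

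**Figure D4:**
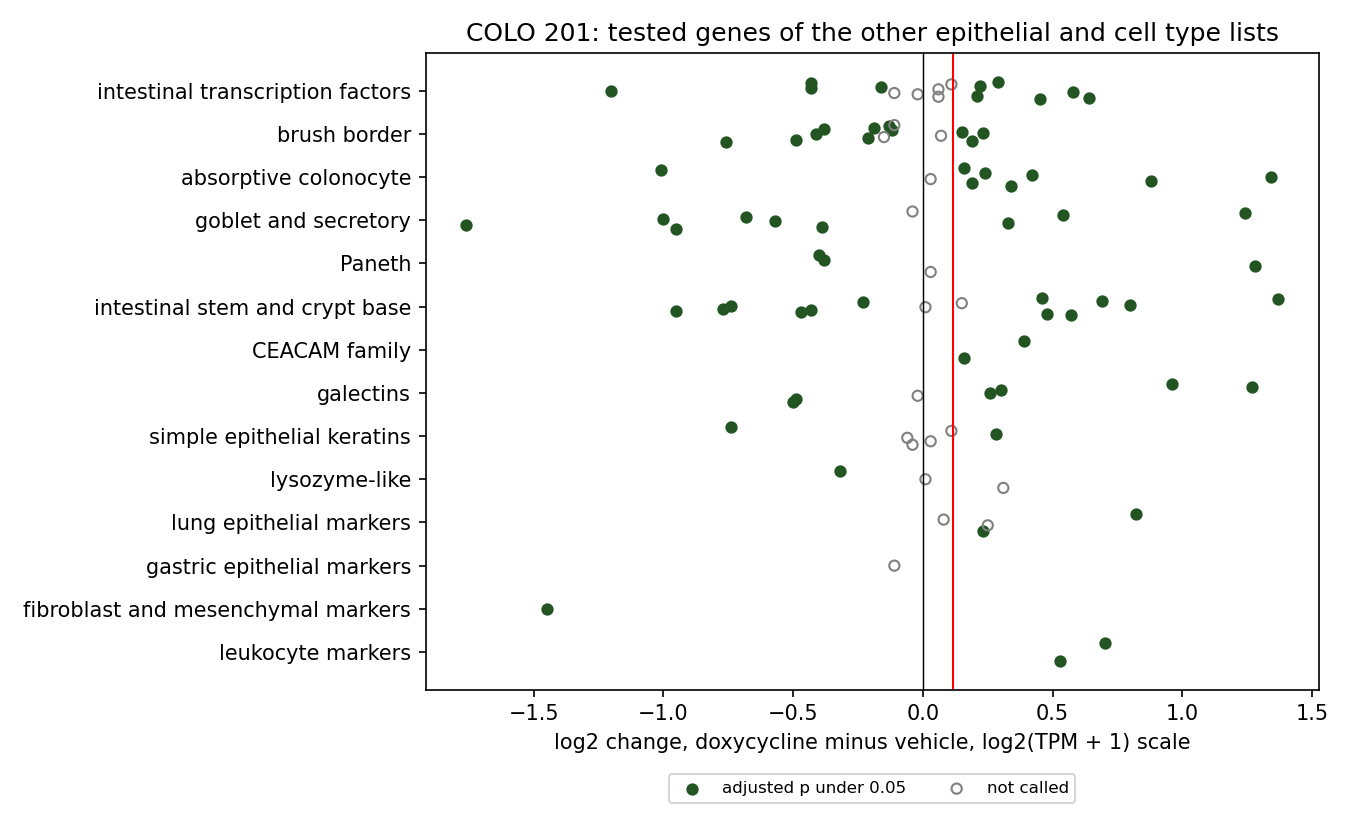
Log2 change (doxycycline minus vehicle, log2(TPM + 1) scale) of each tested gene of the lists in COLO 201, filled where adjusted p was under 0.05; the red line is the median of all tested genes, 0.12. Goblet and brush border genes lie mostly to the left and absorptive genes mostly to the right, and crypt base genes are split.

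Relatives of the markers were read from the lists of galectins, CEACAM genes, keratins and lysozyme-like genes, and they moved in both directions. So did the line as a whole, with 45.9% of all tested genes called higher and 15.0% lower, and after rescaling 27.3% and 29.7%. Of the other galectins, 4 rose and 2 fell of 7 tested in COLO 201: LGALS9 rose by 0.30 ± 0.04, and LGALS9B (1.27 ± 0.06) and LGALS9C (0.96 ± 0.08), near-identical copies whose reads are uncertain, rose too. LGALS3 fell by 0.49 ± 0.04 and LGALS1 by 0.50 ± 0.06, less than LGALS4 did. Of the CEACAM genes, CEACAM1 (0.16 ± 0.04) and CEACAM19 (0.39 ± 0.10) rose, and CEACAM1 did not pass after rescaling (limma adjusted p = 0.57). Of 6 simple epithelial keratins 1 rose and 1 fell, KRT7 (0.28 ± 0.06) and KRT80 (-0.74 ± 0.04), and KRT8 (0.11 ± 0.05) and KRT18 (-0.04 ± 0.04), the most abundant keratins at 2152 and 2463 TPM in vehicle, did not pass. After rescaling 3 of the keratins were lower, with KRT18 at -0.17 (limma adjusted p = 0.025). Of the lysozyme-like genes LYZL4 fell (-0.32 ± 0.12), a call that did not hold without vehicle column 1 or 2 or doxycycline column 1 or 2 (adjusted p 0.060 to 0.17 in limma), and LYZL2 was at 5.60 TPM in vehicle and did not pass (0.01 ± 0.08).

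Markers of other tissues were also read in COLO 201. Lung epithelial markers summed to 6.13 to 6.54 TPM in vehicle and 8.77 to 9.06 TPM with doxycycline. Among them SFTPA2 rose (0.82 ± 0.08), AGER rose (0.23 ± 0.09, limma adjusted p = 0.036) but not after rescaling (0.17) or without vehicle column 1 (0.13) or 2 (0.097) or doxycycline column 1 (0.15) or 2 (0.074), and LAMP3 (0.08 ± 0.08) did not pass. Gastric markers summed to at most 2.49 TPM in any column, with PGC at 1.81 and MUC6 at 0.199 TPM in vehicle. Fibroblast and mesenchymal markers summed to 32.8 to 35.7 TPM in vehicle and 13.0 to 14.4 TPM with doxycycline, of which CAV1, the caveolar coat gene, held 33.4 and 11.6 TPM, and COL1A1 was at 0.390 TPM in vehicle. CAV1 fell by 1.45 ± 0.06 (limma adjusted p = 1.5e-09). Among leukocyte markers CD68 rose by 0.70 ± 0.05 and CD14, at 0.688 TPM in vehicle, by 0.53 ± 0.09. Their part in the changes of the markers was not tested.

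For each tested marker the genes outside the set with the most similar profile over the 6 COLO 201 columns were listed by Pearson r of log2(TPM + 1). The 6 columns share their arms, so a high r is common: 676 genes had r above 0.95 with PHGR1 and 2593 with CDH17. Nearest to PHGR1 were IL10 (r = 0.9995), DUSP27 (0.9992) and MSLN (0.9989), the last the gene of mesothelin. Nearest to LGALS4 were ARRB2 (0.9993) and TTBK1 (0.9991), and nearest to GPA33 were ERN2 (0.9993), MSLN (0.9990) and PTPRN2 (0.9988). MSLN fell from 22.5 to 9.03 TPM. Nearest to LYZ were KRT16 (0.9993), CAV2 (0.9992) and SERTAD4 (0.9991). For VIL1 they were CERK (0.9999), CDH1 (0.9997), the gene of E-cadherin, which went from 344 to 229 TPM, and EPHB2 (0.9996). CDH17 was nearest to COPS7A (0.9999), DDB2 (0.9996) and FGF19 (0.9995), and KRT20 to ARL6IP6 (0.9986), NDUFA10 (0.9982) and ZNF330 (0.9965).

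None of the 10 markers was tested in both COLO 201 and H1975, so a difference in their change between the lines could not be fitted. Of the 53 genes of the other lists that were tested in both lines, 32 changed differently in a joint limma fit, against 38.6% of all 10823 genes tested in both. In H1975 alone 15 of 72 listed genes rose and 27 fell, where 23.9% of all tested genes were called higher and 14.6% lower. In RKO 4 of 43 rose and 7 fell, against 2.09% higher and 16.1% lower over all genes. After rescaling they were 10 and 2 in RKO, against 13.8% and 13.9%. These counts describe the lists and carry no test of them. The RKO vehicle columns behind them were far apart for some lists. Fibroblast and mesenchymal markers summed to 7.67 to 715 TPM in those columns, and absorptive genes to 20.2 to 100 TPM.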

How the data were processed

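Stranded libraries of polyadenylated RNA were made with TruSeq Stranded mRNA, per the labels' protocols. Reads were aligned to GRCh38 with STAR, and DESeq2 was used, per the submitters' processing notes. Versions and the tool that made the TPM are not given in the sources used here. The authors deposited TPM in 1 table per line. The 28 entries of the COLO 201 table named as dates were left out. Depth per sample is unknown from TPM.

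For genes with a mean of at least 1 TPM, two-sided limma tests (version 3.58.1, R 4.3.3) were fitted to log2(TPM + 1) in each line, the prior variance following the mean. The test was checked on simulated data. The joint fit of COLO 201 and H1975 used a mean per line and arm, and could test none of the markers. Positions are from GENCODE 29. The markers and gene lists were chosen with earlier results of these data known. Genes named from the other lists are up to 4 called genes with the smallest adjusted p in COLO 201 and the 2 highest in vehicle, and the 3 nearest profiles of each tested marker; a few of these are not reported here. A few more (HNF4G, TFF3, LGR5, MUC2, LGALS9, CEACAM6, DEFA5, DEFA6, PTPRC, SI, USP37) were named after their values were seen. Alternatives were other pseudocounts, minimums and scalings, no trend, a block and single columns left out. The RKO fit without vehicle column 1 and rescaled was chosen after seeing the data.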

Additional observations from a re-analysis of the deposited data

Results flagged for a closer look

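A joint limma fit found that the change under doxycycline differed between COLO 201 and H1975 for 6 of the genes named here from the other lists, each called in opposite directions in the 2 lines. Over all 10823 genes tested in both lines, 38.6% differed in this fit. The share of all genes called in opposite directions is not given here, so the count of 6 is a description. For the peptidase DPP4 the change was 0.88 in COLO 201 and -0.32 in H1975, a difference of 1.20 ± 0.12 (adjusted p = 1.0e-06). For ELF3 it was 0.45 and -0.24, a difference of 0.69 ± 0.09 (limma adjusted p = 3.2e-05). For TSPAN8 it was 0.16 and -1.03, a difference of 1.19 ± 0.13 (limma adjusted p = 3.1e-06), and for KRT7 0.28 and -0.41, a difference of 0.69 ± 0.09 (limma adjusted p = 1.8e-05). For CD14 it was 0.53 and -0.42, a difference of 0.95 ± 0.17 (limma adjusted p = 3.5e-04), and for AGER 0.23 and -0.45, a difference of 0.69 ± 0.15 (limma adjusted p = 0.0022). The COLO 201 call on which the opposite direction rests was lost for AGER under 7 of 13 alternatives (adjusted p up to 0.17 by limma) and for TSPAN8 under 2 of 14 (up to 0.52). CD14 reached 1 TPM in COLO 201 only through its doxycycline columns.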

How the results depend on the processing

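The 7 calls among the markers in COLO 201 kept their direction and their side of the threshold under every alternative that tested them. At a minimum of 5 TPM 6 were tested, and CDH17 dropped out. Without a minimum 9 of 10 were called, and the added ones, CDX2 and CEACAM5, were under the minimum of the main fit. The share of all genes called without a minimum is not given here, and in the main fit it was 61.0%. Over the markers, 111 of 111 values under an alternative stayed on the same side of the threshold. Of these, 14 were of CDX2 in RKO, which stayed not called while its change ran from -0.14 to 0.42. With the replicate block, the column number 1 to 3, the count in COLO 201 was 7 again. Same-numbered columns there correlated at -0.05, 0.15 and 0.28 in their deviations from the arm means, so the numbers were not taken to pair the columns. Of 710 values of the other genes chosen by the naming rule under an alternative 680 kept their call, 26 lost it and 4 gained it. The MUC1 call in RKO changed under 7 of 12 alternatives, with a change of -1.77 after rescaling (limma adjusted p = 0.14). The count of called markers in COLO 201 stayed within 1.5 times of the main count. Pooled over the lists, 37 genes were higher and 32 lower there, and 28 and 38 after rescaling. Some single lists moved more, with 7 absorptive genes higher in the main fit and 4 after rescaling. Over all genes the calls in RKO went from 1915 to 2921 after rescaling, and in COLO 201 those higher went from 5312 to 3153 and those lower from 1740 to 3435. TPM keep no read totals, so levels under 1 TPM carry no counting error here.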
